A study of Homo sapiens with 39 samples.

Results

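Late growth of MED12 knockout A375 cells was followed with a pooled whole-genome CRISPR knockout library, by setting guide abundance after 14 days in DMSO against guide abundance after 8 days in DMSO. A375 is a human melanoma line driven by mutant BRAF, and every group described here carries the MED12 knockout as well as its library guide. All guides aimed at a named gene were members, without regard to their values. They numbered 76441 in 19113 genes, mostly with 4 guides per gene, of 77441 guides in the table and 89655 in the whole series. The other 1000 guides had no named target. The comparison used 6 of the study's 39 libraries, 3 from day 14 in DMSO and 3 from day 8 in DMSO. Libraries of the same cells from day 8 and day 14 in vemurafenib, an inhibitor of mutant BRAF given at 2 µM, and from day 0 were used for differences between effects, and so were day-14 and day-8 DMSO libraries of MED12 knockout cells that carried a smaller library aimed at epigenetic regulators. The labels do not say whether the knockout line was 1 clone, or whether replicates were infected or cultured separately. P-values from tests across libraries therefore measure the spread between these libraries, which may be technical. Gene p-values that combine guide ranks depend on how alike the guides of a gene rank.

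In a pooled screen each cell carries mostly 1 guide, and a guide's share of the reads follows the share of cells that carry it. Guides that switch off a growth brake gain share with each division, whereas guides that switch off a gene needed for growth lose it, within a few divisions for machines such as the ribosome and later where the protein or its product is long-lived. A comparison that begins at day 8 leaves out the losses completed before then. MED12 belongs to the kinase module of Mediator, the complex that links transcription factors to RNA polymerase II, and its loss has been tied to resistance to kinase inhibitors. The guide letters were not among the sources used here, so guides are called by gene and number.

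Libraries held 56.4 to 73.2 M reads at day 14, and 80.7 to 87.1 M at day 8. The pool narrowed in between. Per library 176 to 203 of the guides had no read at day 0, 1752 to 2038 at day 8 and 5740 to 6739 at day 14. The most abundant 1% of guides held 3.96% to 4.04% of the reads at day 0, 7.42% to 7.92% at day 8 and 17.6% to 18.4% at day 14. The median guide had 234 to 278 reads at day 14 and 637 to 682 at day 8. Replicates of a group were less alike at day 14: the correlation of log guide abundance across guides was 0.418 to 0.426 between day-14 libraries and 0.546 to 0.559 between day-8 libraries, a description over guides that share libraries. Libraries with the same number deviated together. The correlation of their deviations from the group means was 0.918 to 0.919 for same-numbered pairs and -0.483 to -0.432 for others, and the replicate number was kept as a block.

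The size of the median gene's change depended on how libraries were scaled, and its sign differed when the replicate block was left out. With TMM scaling (edgeR's trimmed mean of log ratios) the median gene had a log2 fold change, taken as the median over its guides, of -0.28 for day 14 over day 8. The median gene stood at -0.16 with size factors by relative log expression, at -0.46 with scaling on guides without a named target, at -1.01 with library totals and at 0.16 without the replicate block. Log2 fold changes below are with TMM unless another setting is named, and are not centred on the median gene. Those for day 14 over day 8 in DMSO in this screen are to be read against the median gene's -0.28. Gene-targeting guides had a median CPM (reads scaled to library size after TMM) of 5.04, 4.88 and 5.01 in the day-14 libraries, against 6.07, 6.03 and 5.80 at day 8. Their mean CPM was 16.26, 17.09 and 15.55 at day 14, against 9.93, 10.17 and 9.31 at day 8. The mean thus rose while the median fell, so sums of CPM over a gene's guides, as given below, rose for the average gene. Guides without a named target had a median of 28.8, 28.9 and 29.2 CPM at day 14, against 26.3, 26.7 and 25.3 CPM at day 8. The gene-targeting guides were thus the less abundant class at both days, while the labels do not say whether both classes went into the pool at the same dose. The share of guides with a positive log2 fold change was 36.0% among them and 66.3% among untargeted guides. The 1492 guides against olfactory receptors, genes silent in most cells, had a median log2 fold change of -0.17, between all gene-targeting guides at -0.26 and the untargeted guides at 0.18.

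Most guides against core essential machines went on being lost after day 8, on a base that was already low, while 18.8% had a positive log2 fold change. The 1024 guides of the core essential lists had a median of 0.294, 0.240 and 0.327 CPM in the day-14 libraries, against 0.949, 0.835 and 0.923 CPM at day 8. Every day-14 median lay under every day-8 median. The mean CPM of these guides went the other way, with 6.034, 6.607 and 5.706 at day 14, against 3.474, 3.775 and 3.364 at day 8. Their median log2 fold change was -0.92 from day 8 to day 14 and had been -2.26 from day 0 to day 8. By day 14, 21.9% of them had under 10 reads in all 3 libraries, against 8.20% at day 8, and for all gene-targeting guides the shares were 2.93% at day 14 and 0.671% at day 8. The steps are not independent, since both use the day-8 libraries. Guides at or near 0 reads carry little further information, and 1092 gene-targeting guides had no read in any day-14 library, against 256 at day 8. No guide passed an adjusted p of 0.05 alone.

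Genes were tested by combining their guides' ranks (robust rank aggregation, RRA, on edgeR p-values), over 19102 genes with at least 3 tested guides. The edgeR/RRA p of a gene sets the ranks of its guides against random ranks. Its units are guides, and it is not a test over replicate pairs. At an edgeR/RRA adjusted p under 0.05, 6 genes were enriched at day 14 (0.0314% of the genes tested) and 2 were depleted (0.0105%). At an unadjusted p under 0.05, 580 genes were up (3.04%) and 584 down (3.06%), 1164 in all where 955.1 would be expected by chance. RBM15, MORC2, KIRREL1, USP28 and SMAGP were among the enriched genes, and the depleted genes were SEPHS2 and POLG2. Besides the log2 fold change, each gene has a score, the mean over its guides of log2(CPM + 0.5), whose change is the mean of the 3 day-14 minus day-8 differences with their standard error. The score understates changes of low guides because of the added 0.5, and the median gene's score changed by -0.12. CPM sums are described by library, but the share of all genes whose groups did not overlap is not given here.

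RBM15 encodes an RNA-binding adaptor that brings the m6A methyltransferase complex to its RNA targets, and it had the lowest p of all genes. Its guides summed to 527, 1351 and 824 CPM in the day-14 libraries, against 165, 399 and 246 CPM in the day-8 libraries of the same numbers. Each day-14 library was above all day-8 libraries. The 4 guides rose alike, with log2 fold changes between 1.57 and 1.82, and the gene score rose by 1.67 ± 0.04 (SE, n = 3 pairs, edgeR/RRA adjusted p = 2.68e-04). MORC2 is an ATPase that works with the HUSH complex in silencing of chromatin. It summed to 612, 302 and 278 CPM at day 14, against 196, 106 and 82.1 CPM at day 8, so the groups did not overlap. Its score rose by 1.33 ± 0.01 (SE, n = 3 pairs, edgeR/RRA adjusted p = 0.00964), with 3 guides between 1.499 and 1.67 and MORC2_3 at 0.64.

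USP28, a deubiquitinase that takes part in the arrest of cells after prolonged mitosis, had 443, 241 and 465 CPM at day 14, against 144, 101 and 149 CPM at day 8. Its score rose by 1.22 ± 0.12 (SE, n = 3 pairs, edgeR/RRA adjusted p = 0.0179), and the groups did not overlap.

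KIRREL1 is a membrane adhesion protein that has been reported to feed into Hippo signalling. Its guides summed to 199.9, 249 and 582 CPM at day 14, against 88.0, 111 and 178 CPM at day 8. Replicate 3 held most of the spread at day 14, but the groups did not overlap, and the score rose by 1.23 ± 0.19 (SE, n = 3 pairs, edgeR/RRA adjusted p = 0.00964). SMAGP encodes a small transmembrane glycoprotein of cell contacts. It had 112, 849.8 and 349 CPM at day 14, against 41.6, 185 and 96.4 CPM at day 8. Here the groups overlapped, since replicate 1 at day 14 lay under replicate 2 at day 8, although all 3 pairs were up. SMAGP_4 had a log2 fold change of 2.13 and SMAGP_3 one of -0.37, and the score rose by 1.06 ± 0.25 (SE, n = 3 pairs, edgeR/RRA adjusted p = 0.0306).

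Of the depleted genes, SEPHS2 makes selenophosphate, the selenium donor for selenocysteine and so for selenoproteins such as the ferroptosis guard GPX4. Its guides summed to 15.0, 7.72 and 6.10 CPM at day 14, against 24.6, 17.8 and 19.6 CPM at day 8, with no overlap. All 4 guides were lower, with log2 fold changes between -2.61 and -0.998, and the score fell by 1.17 ± 0.09 (SE, n = 3 pairs, edgeR/RRA adjusted p = 0.0190). POLG2 is the accessory subunit of the polymerase that copies mitochondrial DNA. It had 1.03, 8.33 and 1.85 CPM at day 14, against 6.00, 7.94 and 5.65 CPM at day 8. Replicate 2 at day 14 lay above all day-8 libraries, where POLG2_1 held nearly all of the sum. That guide had 486 reads over the day-14 libraries and a log2 fold change of -0.51. The other 3 guides had log2 fold changes of -6.02 to -3.04, and the score, which weights guides equally, fell in all pairs by 1.14 ± 0.15 (SE, n = 3 pairs, edgeR/RRA adjusted p = 0.0461).

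The 3 depleted genes with the next lowest p did not pass by edgeR/RRA in the 6 libraries of this comparison. TWNK, the helicase of the mitochondrial replication fork and thus a partner of POLG2, had 0.184, 0.887 and 1.11 CPM at day 14, against 3.26, 6.94 and 8.37 CPM at day 8. The groups did not overlap, and its score changed by -1.22 ± 0.05 (SE, n = 3 pairs, edgeR/RRA adjusted p = 0.0622). TERT, the catalytic subunit of telomerase, had 10.0, 1.15 and 15.9 CPM at day 14, against 21.5, 5.83 and 24.1 CPM at day 8. The groups overlapped. TERT_1 had 1228 reads over the day-14 libraries, while TERT_3 and TERT_4 had none there, against 97 and 285 reads at day 8. The fitted median of TERT was -5.19, and it was -3.42 with guides at 0 set to a floor of 3 counts over the group. Its score changed by -1.17 ± 0.04 (SE, n = 3 pairs, edgeR/RRA adjusted p = 0.0637). XRCC3, a protein of homologous recombination, had 1.42, 0.129 and 0.436 CPM at day 14, against 3.82, 2.79 and 3.46 CPM at day 8, with no overlap and a score change of -0.96 ± 0.11 (edgeR/RRA adjusted p = 0.0637). In a fit of all libraries of the table with the replicate block the depleted genes were these 3 and neither SEPHS2 nor POLG2 (edgeR/RRA adjusted p = 0.0262 for TWNK, 0.00304 for TERT and 0.0286 for XRCC3, and 0.0694 for SEPHS2 and 0.0792 for POLG2). By limma on gene scores all 3 were depleted, with adjusted p of 8.14e-06, 2.99e-04 and 2.93e-04, and after centring on the median gene of 4.53e-04, 0.00592 and 0.00969.

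The calls rest on all 3 replicate pairs. Leaving out pair 1 or pair 3 left 0 enriched genes and leaving out pair 2 left 1, RBM15, while 0 depleted genes were left each time, with 520 to 574 genes at an unadjusted p under 0.05 in each direction. Without the replicate block 3 genes were enriched, RBM15 and KIRREL1 among them, and 4 were depleted (TERT, TWNK, RCC1L and TBCD), none of the last 4 being SEPHS2 or POLG2. SEPHS2 then had an edgeR/RRA adjusted p of 0.179 and POLG2 one of 0.408. Another scaling gave 6 enriched and 1 depleted (relative log expression, and likewise guides without a named target) or 4 enriched and 0 depleted (library totals). A simulation with guide dispersions estimated from these libraries recovered 84% of genes raised by a log2 of 2 and 10% of those raised by 1. All guides of a changed gene moved alike in it, and genes with few reads were not changed. Deviations shared by same-numbered libraries were not simulated either. Recovery of genes with few reads or unlike guides is therefore not known, and absence from the calls says little about smaller changes.

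A test on gene scores with limma, which drops the guide ranks and pools the spread across genes, called 52 genes enriched (0.272%) and 256 depleted (1.34%), including all 8 of the genes called by edgeR/RRA. After each library was centred on its median gene, a setting added after the data had been seen, it called 88 enriched (0.461%) and 33 depleted (0.173%). The number of depleted genes thus followed the scaling, and the counts of list members below are given for both.

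Hippo pathway genes held 1 of 22 enriched by edgeR/RRA (KIRREL1), against 0.0314% of all genes, 0 depleted, and a median log2 fold change of -0.05. The alias KIRREL1 was added to the list after the tables were read. Members of this and the other lists were chosen with earlier results of these data known, so the counts only describe the lists. By limma 4 of 22 were enriched with either scaling, where 0.272% of all genes were enriched before centring and 0.461% after: KIRREL1, TAOK1, NF2 and PTPN14. TAOK1, a kinase that activates MST1 and MST2, had 468, 435 and 549 CPM at day 14, against 157, 163 and 185 CPM at day 8. NF2, the merlin tumour suppressor that activates the LATS kinases, had 416, 382 and 612 CPM at day 14, against 203, 151 and 157 CPM at day 8. PTPN14, a phosphatase that binds YAP, had 258, 295 and 300.2 CPM at day 14, against 117, 117 and 135 CPM at day 8. None of these 3 genes had overlapping groups, though the share of all genes without overlap is not given here. Their score changes were 1.19 ± 0.10, 0.78 ± 0.02 and 0.99 ± 0.10, and none passed by edgeR/RRA (adjusted p = 0.318, 0.540 and 0.585). WWTR1, which encodes the Hippo effector TAZ, had a median of -1.22 and a score change of 0.09 ± 0.33 and did not pass.

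Among 19 RB and CDK inhibitor genes none passed by edgeR/RRA, with a median log2 fold change of -0.08, and 2 were enriched by limma with either scaling (0.272% of all genes before centring and 0.461% after). These were RB1, which restrains E2F factors before S phase, and E2F7, an E2F repressor. RB1 had 530.3, 200.5 and 469 CPM at day 14, against 195, 97.6 and 172 CPM at day 8, and a score change of 0.91 ± 0.07 (edgeR/RRA adjusted p = 0.150). E2F7 had 379, 519 and 270.0 CPM at day 14, against 143, 169 and 123 CPM at day 8, and a score change of 1.12 ± 0.03 (edgeR/RRA adjusted p = 0.261). The groups did not overlap for either gene, by a narrow margin for RB1, and the share of all genes without overlap is not given here.

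Of 25 BAF and PBAF remodeller genes none passed by edgeR/RRA and the median log2 fold change was 0.00. By limma SMARCD1 (score change 0.99 ± 0.38) and the ATPase SMARCA4 (0.80 ± 0.003) were enriched with either scaling (0.272% of all genes before centring and 0.461% after). By the same test 1 gene, PHF10, was depleted only before centring (limma adjusted p = 0.0321, and 0.128 centred). Of all genes 1.34% were depleted by limma before centring and 0.173% after. The median log2 fold change of SMARCA4 was 0.68 with TMM and -0.05 with library totals, a scaling that moved the median gene by -0.73. Of 12 genes around RNA m6A, only RBM15 was called by either test, where edgeR/RRA called 0.0314% of all genes enriched. RBM15B, the paralog of RBM15, had a median of 0.66, the methyltransferase METTL3 one of 0.19 and its partner METTL14 one of -1.40, and none of the 3 passed. MORC2 lay outside the lists.

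Several lists of mitochondrial gene expression held more depleted members by limma than the share over all genes. Of 50 genes of mitochondrial DNA and RNA maintenance, 1 was depleted by edgeR/RRA (POLG2) and 10 by limma (20.0%, against 1.34% of all genes), 3 of them also after centring. Over all genes 0.0105% were depleted by edgeR/RRA, and 0.173% by limma after centring. The maintenance list's median log2 fold change was -0.87. RCC1L, an assembly factor of the mitochondrial ribosome, had 0.533, 1.77 and 0.872 CPM at day 14, against 5.28, 5.61 and 6.30 CPM at day 8 (limma adjusted p = 1.17e-04 before centring and 0.00574 after, edgeR/RRA adjusted p = 0.318). Of 82 mitochondrial ribosomal proteins 10 were depleted by limma (12.2%), 2 of them also after centring, with none by edgeR/RRA and a median of -0.91. Of 19 mitochondrial aminoacyl-tRNA synthetases 3 were depleted by limma (15.8%), 2 of them (LARS2 and EARS2) also after centring and YARS2 only before it, with a median of -1.19. LARS2, which charges mitochondrial leucine tRNA, had a score change of -1.005 ± 0.07 and EARS2, the glutamate enzyme, one of -0.96 ± 0.29.

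Of 20 ferroptosis and selenoprotein genes 1 was depleted by edgeR/RRA (SEPHS2), against 0.0105% of all genes. By limma 5 were depleted (25.0%, against 1.34% of all genes), 1 of them also after centring (against 0.173%). The median log2 fold change of these genes was -1.17, or -1.08 with guides at 0 set to the floor. EEFSEC, the elongation factor for selenocysteine, had a score change of -1.003 ± 0.07 (edgeR/RRA adjusted p = 0.175, limma adjusted p = 0.0113). The others by limma were TFRC, the transferrin receptor (-0.84 ± 0.31), TXNRD1, a selenoenzyme that reduces thioredoxin (-0.86 ± 0.19), and TRIT1, a tRNA modifier that also acts on selenocysteine tRNA (-0.77 ± 0.17). Of this list's guides 1.27% had under 10 reads in all day-8 libraries, against 0.671% for all genes and 15.2% for cytosolic ribosomal proteins.

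By log2 fold change the respiratory chain itself had medians nearer to that of all genes. Complex I genes (50) had a median log2 fold change of -0.27, complexes II, III and IV (51) one of -0.47 and ATP synthase (19) one of -0.69, with none called by edgeR/RRA and 0, 2 (COX20 and UQCRB) and 0 depleted by limma before centring. Over all genes limma called 1.34% depleted before centring and 0.173% after. By gene score ATP synthase was not apart, with a median change of -0.34. Mitochondrial ribosomal proteins had -0.35, the maintenance list -0.31 and mitochondrial aminoacyl-tRNA synthetases -0.56. Complex I had -0.13 and complexes II, III and IV -0.26, against -0.12 for all genes. The difference of these respiratory medians from those of the mitochondrial lists above was not tested by either measure. Iron-sulfur cluster assembly (26 genes) had a median of -0.92 and 3 depleted by limma (ISCA2, HSPA9 and ISCU), and the TCA cycle and lipoic acid genes (27) one of -0.52 and 2 (MCAT and MPC2). All 5 were lost after centring, as were COX20 and UQCRB.

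Machines needed by every cell were low as groups by log2 fold change but gave no edgeR/RRA call. The 77 cytosolic ribosomal proteins had a median log2 fold change of -0.99, or -0.86 with guides at 0 set to the floor, and 0 members depleted by limma, after a median of -3.23 from day 0 to day 8. The 33 proteasome subunits had a median of -1.14 after -1.89, the 53 spliceosome factors -0.99 after -2.04, the 48 DNA replication genes -0.92 after -2.005 and the 28 RNA polymerase subunits -0.83 after -2.45. Limma called 2 spliceosome factors (3.77%, AQR and LSM7) and 2 DNA replication genes (4.17%, TOPBP1 and RFC3) depleted before centring and none after, where 1.34% of all genes were depleted before and 0.173% after. It called no proteasome or RNA polymerase gene. The changes per day were -0.16 late and -0.40 early for cytosolic ribosomal proteins, and -0.15 late and -0.18 early for mitochondrial ribosomal proteins. By log2 fold changes of guides these 6 lists lay below the median gene under each of 15 ways of processing, none of them on gene scores. On gene scores the gaps were smaller. After centring, the list medians ran from -0.20 (mitochondrial ribosomal proteins) to 0.006 (RNA polymerase subunits), with -0.02 for cytosolic ribosomal proteins, against 0.03 for all genes. The 12 genes of Elongator and tRNA wobble modification had a median of -1.35, or -1.36 with guides at 0 set to the floor, with all 12 below 0, as 72.7% of all genes were, and none called by either test. The 21 vacuolar ATPase genes had a median of -0.79 and 3 depleted by limma (ATP6V0B, ATP6AP2 and ATP6V1C1), none after centring.

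The other lists given here held no gene called by edgeR/RRA, and none called by limma after centring except PDPK1. For the limma calls below, 1.34% of all genes were depleted before centring and 0.173% after. The medians of cytosolic aminoacyl-tRNA synthetases (20 genes, -0.95, or -0.93 with the floor), mitochondrial import and proteases (32, -0.68), UFMylation (5, -0.74) and the Mediator kinase module (6, -0.64) were the lowest of these, and 1 member each of the first and second was depleted by limma before centring, LARS and TOMM40. Metabolic lists were nearer to the median gene: purine and pyrimidine synthesis (28) had -0.58, with GUK1 depleted by limma, glycolysis (22) -0.49, cholesterol and isoprenoid synthesis (30) -0.38, or -0.34 with the floor, and coenzyme Q synthesis (12) -0.29. Among signalling lists RAS brakes (13) had a median of -0.03 and TGF-beta and SMAD genes (13) -0.47, with none called. PI3K, mTOR and TSC genes (33) had -0.22, with NPRL3 and PDPK1, the kinase that activates AKT, depleted by limma. Only PDPK1 was called after centring (score change -0.92 ± 0.08, limma adjusted p = 0.0176). The CUL3, KEAP1 and NRF2 list (17) had -0.52, with UBA3 depleted, the melanocyte lineage (15) -0.13, with ZEB2 depleted, and G1 cyclins and kinases (7) -0.46, with CDK6 depleted, each by limma before centring alone. Apoptosis genes (22) had -0.31. Among chromatin lists SAGA (21) had -0.48, with USP22 depleted by limma before centring, Polycomb (21) -0.33 and MLL and COMPASS (20) -0.22.

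Of the genes tied to the cells' own background, none passed. MED12 guides summed to 43.7, 62.1 and 37.5 CPM at day 14, against 39.9, 45.5 and 31.7 CPM at day 8. The sums were higher in every pair, while the score changed by -0.42 ± 0.08 and the median log2 fold change was -1.04, or 0.12 without the replicate block (edgeR/RRA adjusted p = 1). The measures thus disagree in sign, and the mean CPM of all gene-targeting guides was also higher at day 14. Counts of library guides do not show whether MED12 itself was disrupted. MED23, another Mediator subunit, had a median of -0.64 and a score change of -0.44 ± 0.03 (adjusted p = 1). The 25 listed genes of Mediator's head, middle and tail had a median of -0.72, with none called by edgeR/RRA and MED14, the scaffold subunit, depleted by limma before centring (-0.84 ± 0.07). BRAF had a median of -2.43 over 4 guides, of which BRAF_3 had 0.44, with 1883 reads over the day-14 libraries, and a score change of -0.40 ± 0.02 (edgeR/RRA adjusted p = 0.904). NF1, a RAS brake, was up in 1 of 3 pairs (score change -0.08 ± 0.34), and CUL3, a ubiquitin ligase scaffold, had a score change of -0.42 ± 0.07 (edgeR/RRA adjusted p = 1 and 0.919).

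Guides of the same gene often differed. Of 18830 genes with 4 tested guides, 524 (2.78%) had all 4 up and 3634 (19.3%) all 4 down. The median SD of the log2 fold change among 4 guides of a gene was 0.731, and the median SD of a guide's change between the 3 pairs, on the log2(CPM + 0.5) scale, was 0.638. By gene score 9.28% of genes were up in all 3 pairs and 27.3% down in all 3. The 6 enriched genes were up and both depleted genes down in all 3 pairs, which is the direction by which the rule for naming genes chose them.

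The late change was set against the early change, from day 0 to day 8, as a difference in log2 per day. With edgeR/RRA, 1 gene had a higher late rate (MOCS3) and 1 a lower one (TERT), each 0.00524% of genes, against 575 (3.01%) and 524 (2.74%) genes at an unadjusted p under 0.05. By limma both counts were 0. TERT changed by -0.87 per day late, or -0.57 with the floor, and by -0.17 early, a median difference of -0.70 per day (edgeR/RRA adjusted p = 0.00263). MOCS3, which activates sulfur carriers for molybdenum cofactor and tRNA thiolation, changed by -0.23 per day late and -0.86 early, a median difference of 0.64 (edgeR/RRA adjusted p = 0.0227). Its guides were nearly gone by day 8: MOCS3_1 and MOCS3_2 had 0 reads in the 3 day-8 libraries and 1 read each at day 14, and MOCS3_3 and MOCS3_4 had 1 and 0 reads at day 14, against 86 and 70 at day 8. Its value is therefore at the counting limit.

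For the named enriched genes a difference between the intervals was not shown. RBM15 gained 0.28 log2 per day late and 0.28 early, MORC2 0.26 late and 0.23 early, KIRREL1 0.18 late and 0.13 early, USP28 0.19 late and 0.11 early, and SMAGP 0.21 late and 0.10 early (edgeR/RRA adjusted p of the difference 0.788 for SMAGP and 1 for the other 4). Early growth called 10 genes enriched (0.0524%) and 93 depleted (0.487%), with 3.2% and 5.93% of genes up and down at an unadjusted p under 0.05, and shares the day-8 libraries with late growth.

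Late growth in DMSO was also set against the same days in vemurafenib. No gene differed by edgeR/RRA in either direction (0 of 19102 each way), with 498 genes at an unadjusted p under 0.05 each way (2.61%), 0 by limma, and 0 higher and 1 lower in DMSO by DESeq2. From day 8 to day 14 the median gene had a log2 fold change of -0.28 in DMSO and -0.30 in vemurafenib. Over these days the median log2 fold change of RBM15 was 1.67 in DMSO and 2.37 in vemurafenib, and that of MORC2 1.55 in DMSO and 2.01 in vemurafenib. SEPHS2 had -1.85 in DMSO and -1.35 in vemurafenib, and POLG2 -3.55 in DMSO and -1.94 in vemurafenib. The differences of these 4 genes did not pass (edgeR/RRA adjusted p = 0.949, 0.981, 0.990 and 0.875). Within vemurafenib 4 genes were enriched (0.0209%) and 0 depleted, with 594 (3.11%) and 571 (2.99%) genes up and down at an unadjusted p under 0.05.

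The epigenetic library gave the same interval in separate libraries, with 10 guides per gene and a smaller spread. The median score SE was 0.192 in the whole-genome screen and 0.0907 in the epigenetic library. In the epigenetic library 16 of 1115 genes were enriched (1.43%) and 14 depleted (1.26%) by edgeR/RRA, with 4.48% and 7.8% of genes up and down at an unadjusted p under 0.05.

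The genes called in the epigenetic library had mostly the same sign in the whole-genome screen. All 16 enriched genes had a positive score change there, and 12 of 14 depleted genes a negative one, where 30.8% of the shared genes were above 0. Over the 1090 shared genes the score changes had Pearson's r of 0.36 and Spearman's rho of 0.31 across genes, which are not independent replicates. CDKN1A, the p21 inhibitor of CDKs, was enriched in the epigenetic library. It had a median log2 fold change of 0.64 in the whole-genome screen, where it did not pass (edgeR/RRA adjusted p = 0.731), against 0.40 in the epigenetic library.

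Of other genes enriched in the epigenetic library, MPHOSPH8 is a subunit of HUSH and SETDB1 a histone methyltransferase that works with it. Their medians were 0.88 and 0.53 in the whole-genome screen (edgeR/RRA adjusted p = 0.540 and 0.830), against 0.93 and 0.82 in the epigenetic library. SMARCA4 and SMARCC1 of BAF had 0.68 and 0.47 in the whole-genome screen, against 0.83 and 0.72 in the epigenetic library. RB1, PTPN14 and NF2 had 1.16, 0.85 and 0.96 in the whole-genome screen, against 0.76, 0.70 and 0.45 in the epigenetic library. TERT was depleted in the epigenetic library with a median of -0.88 and a score change of -0.88 ± 0.12 (edgeR/RRA adjusted p = 2.67e-04). Of depleted genes whose scores differed in sign or lay near 0, ELP3, the catalytic Elongator subunit, had a score change of 0.07 ± 0.09 in the whole-genome screen and -0.71 ± 0.06 in the epigenetic library. WDR5, a scaffold of histone methyltransferases, had -0.06 ± 0.27 in the whole-genome screen and -0.76 ± 0.13 in the epigenetic library. A test of the difference between libraries was not made, since the tables were normalized separately.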

How the data were processed

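The table as deposited by the authors holds raw counts, 1 per guide and library, without normalization. Reads were handled with bcl2fastq, HISAT2 and HTSeq, per the submitters' processing notes. Guide sequences were amplified from genomic DNA with 2 rounds of PCR, per the labels' protocols, which mention no molecular identifiers, so reads are not independent molecules and floors cover counting error only. Tool versions and guide reference: not given in the sources used here. Symbols are the table's: 18221 of 19113 are current and 840 are older names in the RefSeq gene table. The MED23 knockout screen was not used, since it holds no day-8 library.

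Guides with at least 10 counts in at least 2 of 3 day-0 libraries were kept (278 gene-targeting guides were removed). The 6 libraries were scaled with TMM and fitted with edgeR 4.0.16 (quasi-likelihood, R 4.3.3, group plus replicate number as a block, biological coefficient of variation 0.543, 2 residual degrees of freedom). Signed p-values were ranked and combined per gene by RRA (alpha 0.25) against its exact null. Each gene's p doubles the lower p of the up and down tests, with Benjamini-Hochberg adjustment over 19102 genes at a threshold of 0.05. Gene scores add 0.5 to CPM and were tested with limma 3.58.1, and DESeq2 1.42.0 was run as an alternative. Guides at 0 in a whole group were set at a floor of 3 counts over the group for bounded medians. Differences of rates divide by 6 days late and 8 days early, in 1 fit of 9 libraries.

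The replicate numbers come from the labels. Every same-numbered pair correlated above 0.1 (0.918 to 0.919), so they were taken as pairs. Genes were named by rule: up to 15 called per direction with the same sign in all 3 pairs, or the 3 with the lowest p as not passing where under 3 passed, up to 4 members of each of 41 lists that passed or otherwise up to 2 by lowest p, MED12, MED23, BRAF, NF1, NF2 and CUL3, and genes called in a difference or in both libraries. The text names fewer genes than the rule allows, and results for some genes and lists are not reported here. Genes named outside the rule were chosen after their values were seen: CDKN1A, EEFSEC, TAOK1, PTPN14, WWTR1, PHF10, METTL3, METTL14, RBM15B, RCC1L, TBCD, TFRC, TXNRD1, TRIT1, MPHOSPH8, SETDB1, SMARCC1, ELP3, WDR5, COX20, UQCRB, HSPA9, ISCU, MPC2, YARS2, LSM7, RFC3, ATP6V1C1, LARS, TOMM40, NPRL3, UBA3 and USP22, and those of the closing observations. The members and lists were chosen with earlier results of these data known, and 1 alias (KIRREL1) was added to a list after the tables were read. Tested on simulated data with 19102 genes, the steps recovered 88% of 50 genes at a log2 of -2, 16% at -1, 10% at 1 and 84% at 2, with 1 false call. The changed genes were not drawn from those with few reads, their guides moved alike, and no replicate effect was simulated.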

Additional observations from a re-analysis of the deposited data

Results flagged for a closer look

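MOCS3 and TERT were singled out because their change per day differed between the late and the early interval by the test of the difference itself. TERT had a median difference, late minus early, of -0.6956 log2 per day, and an edgeR/RRA adjusted p of 0.00263, with a range over all settings of 0.00256 to 1 and 12 of 16 past the threshold. Of its 4 guides 2 had no read in any day-14 library, and with these at a floor of 3 counts over the group its late change was -0.57 log2 per day, against -0.87 as fitted and -0.17 early. MOCS3 had a median difference of 0.6447 log2 per day and an edgeR/RRA adjusted p of 0.0227, with a range of 0.00951 to 0.850 and 9 of 16 past the threshold. Of the 4 guides against MOCS3, 2 had no read in any day-8 library. The part of low counts in both values was not tested.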

How the results depend on the processing

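The 15 alternatives gave 4 to 6 enriched genes in late growth with another scaling, filter, tool per guide, alpha of 0.5 or all libraries with the block, all of them among the 6 called. Enriched genes numbered 3 without the replicate block and 3 in all libraries with no replicate block, 52 with limma and 88 with limma centred, and 0 to 1 with a pair left out. Depleted genes numbered 3 in all libraries with the block (TERT, TWNK and XRCC3, none of them reported as called), 4 without the block and 5 in all libraries without it, 1 each with RLE factors, scaling on untargeted guides, no filter, filterByExpr and DESeq2 (LARS2), 0 with library totals (474 at an unadjusted p under 0.05), 256 with limma and 33 with limma centred, and 0 in each leave-one-out fit. For the difference of rates, enriched genes numbered 3 with library totals, 0 in all libraries with the block, with DESeq2 and with limma, centred or not, and 0 in each leave-one-out fit, and depleted genes 0 with limma, centred or not, and 0 to 1 with a pair left out. For DMSO minus vemurafenib, 1 gene was depleted with DESeq2, and 0 to 1 enriched with a pair left out. In the epigenetic library enriched genes numbered 55 with limma, 69 with limma centred and 10 to 12 with a pair left out, and depleted genes 7 without the block, 8 in all libraries without it, 7 with library totals, 153 with limma, 131 with limma centred and 4 to 11 with a pair left out. RBM15 passed in 14 of 16 settings, KIRREL1 in 13, MORC2 in 11, USP28 in 10, SMAGP in 8, SEPHS2 in 7 and POLG2 in 5. The cause of these changes was not tested, except that leaving out a pair leaves fewer libraries. Guides near 0 reads at day 8 limit further loss that can be seen.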

Other observations

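Genes outside the lists were called by limma on gene scores, and are named here after their values were seen. Among those enriched with either scaling, RPRD2, which binds the tail of RNA polymerase II, had 510.0, 536 and 203 CPM at day 14, against 172, 192 and 111 CPM at day 8 (score change 1.04 ± 0.15, limma adjusted p before centring 7.11e-04). RSPO2, a secreted agonist of WNT signalling, had 373, 182 and 674 CPM at day 14, against 78.8, 70.5 and 136 CPM at day 8 (1.16 ± 0.13). OTOP1, a proton channel, had 363, 281 and 334 CPM at day 14, against 123, 124 and 139 CPM at day 8 (0.95 ± 0.06). The groups of the 3 genes did not overlap, though the share of all genes without overlap is not given here, and none passed by edgeR/RRA.

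Among those depleted with either scaling, PIGA, which begins the synthesis of glycosylphosphatidylinositol anchors, had 5.77, 6.00 and 5.36 CPM at day 14, against 10.7, 10.5 and 9.15 CPM at day 8 (-1.02 ± 0.03). NUP188, a nuclear pore scaffold, had 3.73, 5.01 and 1.35 CPM at day 14, against 7.81, 10.2 and 4.43 CPM at day 8 (-0.99 ± 0.02). SMIM8, a small membrane protein, had the lowest score change among the genes called, -1.53 ± 0.18, yet its guides summed to 66.8, 28.3 and 129 CPM at day 14, against 63.0, 61.4 and 104 CPM at day 8. Its early median log2 fold change was 0.31 and its late median in vemurafenib -0.18, and it did not pass by edgeR/RRA (adjusted p = 0.105).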
